A study of Mus musculus with 20 samples.

Results

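The citrate cycle and fatty acid oxidation genes were examined as a set of 43 genes, and the cytosines listed in their mRNAs were taken by gene symbol from the table of candidate 5-methylcytosine (m5C) sites. The set covers the citrate cycle and the pyruvate dehydrogenase complex that feeds it, the carnitine shuttle, mitochondrial and peroxisomal beta-oxidation, electron transfer flavoprotein, aspartate aminotransferase, catalase, and the chaperones and protease of the mitochondrial matrix. Of the 32378 listed sites, 87 lay in these genes. They belonged to 29 of the 43 genes, and the other 14 (Acadvl, Acads, Etfb, Eci1, Eci2, Acaa2, Ehhadh, Idh3a, Mdh2, Dld, Pdha1, Fh1, Sucla2 and Suclg2) had no listed site.

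Bulk mRNA from small intestine, liver, spleen, kidney and heart was treated with bisulfite and sequenced, with 2 wild-type (WT) and 2 Nsun6 knockout (KO) libraries per tissue, 20 in all. Both genotypes were C57BL/6J females of 8 weeks. KO mice carried a homozygous germline deletion of exons 3 and 4 of Nsun6, made with CRISPR/Cas9 and therefore present in every cell type, and WT mice carried none. No other allele or treatment was named. A site's m5C level is given as the percentage of its reads that kept C after bisulfite, and its coverage as the number of reads over it. The labels number the replicates but do not say whether they came from separate animals, so the p-values below concern libraries and not animals. In several of the main edgeR fits, among them WT heart against kidney and the 5 WT tissues, the spread between libraries was pooled over all sites. A site's own replicates then hardly entered its p.

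The citrate cycle oxidizes acetyl-CoA in the mitochondrial matrix, and fatty acid oxidation supplies acetyl-CoA by removing carbon units from acyl-CoA. Heart muscle takes much of its energy from fatty acids, whereas liver and kidney also run both pathways. On mRNA, m5C is placed mainly by NSUN2, whose sites tend to be followed by a G-rich sequence (CNGGG, methylated C first), and by NSUN6, whose sites tend to carry CTCCA.

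Most listed sites of these genes were seen once. Of the 87, 78 (89.7%) had been passed by the authors in exactly 1 library, compared with 97.1% of all listed sites, and 9 (10.3%) had been passed in at least 2, compared with 2.88% of all. The mRNA sequence around those 9 is given here because the tissue differences below rest on them. Each run is 5′ to 3′ from mm10 with the methylated C in capitals and 10 nt on both sides, read across exon junctions where the site lies near an exon end.
Idh3b exon 9: gtttttgagaCgggtgctcgg
Idh3b exon 3: aggaagtgttCaaggctgctg
Got2 3′ UTR: gtgcataactCagcgactgaa
Hadha 3′ UTR, upstream: tatcaggaagCaggaaaaaga
Lonp1 exon 6: gcggcactcaCtggggcggag
Lonp1 exon 1: tgggccgctgCgcggtgctgg
Dlst 3′ UTR: gggtggactgCggtgggaacc
Acadm noncoding exon: gaaggtctgcCtgggctgtgt
Pdhb noncoding exon: cctgagagatCggggtcgtgt

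The Idh3b sites were chr2:130280957, 1 nt from the 3′ end of exon 9 of 12, and chr2:130283941, 3 nt from the 3′ end of exon 3, both in coding sequence on the minus strand. The Got2 site (chr8:95865004, minus strand) and the upstream Hadha site (chr5:30119729, minus strand) lay in the 3′ UTR, as did the Dlst site (chr12:85133727, plus strand). Lonp1 had a coding site in exon 6 (chr17:56620269) and another in exon 1 (chr17:56626833), both on the minus strand. The Acadm (chr3:153941849) and Pdhb (chr14:8172696) sites lay on the minus strand in exons of transcripts annotated as noncoding. All 9 were passed in at least 2 heart libraries, and 6 of them (66.7%) in no other tissue. Among all 934 sites passed in at least 2 libraries, 441 (47.2%) were passed in at least 2 heart libraries and 244 (26.1%) in heart alone.

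CNGGG followed the C at 3 of the 9 sites, namely Lonp1 exon 6, Acadm and Pdhb, and at 6 of all 87 (6.90%). Over all listed sites with sequence, 4.44% carried it, as did 19.01% of those passed in at least 2 libraries. CTCCA was present at 1 of the 87 sites (1.15%), compared with 0.934% of all listed sites, and at none of the 9. Both motifs were read on the transcript strand from the listed C and cannot overlap. By region, 58 of the 87 sites were coding, 5 were in a 5′ UTR, 19 in a 3′ UTR and 5 in noncoding exons. Coding sites made up 66.7% of the member sites and 59.3% of all listed sites with a gene.

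Across the series, reads over listed sites summed to between 1230665 and 4640168 per library. No listed site lay in Nsun6 (0 sites), and the genotypes were therefore checked through its motif. At the 23 CTCCA sites passed in at least 2 libraries, the pooled level was between 5.94% and 23.4% in the 10 WT libraries and between 0% and 1.16% in the 10 KO libraries. All 23 were passed in WT libraries and 1 in KO libraries. They entered mostly where they were high, so the WT range was partly set by that choice. Of 8 heart markers, 3 had listed sites, and they held 0.0152% to 0.0916% of the reads over listed sites in the 4 heart libraries and 0% in the other 16. The other 5 (Myl3, Actc1, Tnnt2, Tnni3 and Nppa) had no listed site in any tissue. For liver, spleen, kidney and small intestine, the listed markers were also highest in their own tissue. Pancreatic acinar markers (2 of 6 listed) held 1.41% and 0.914% of reads in small intestine WT replicate 1 and KO replicate 1 and at most 0.00332% elsewhere. Erythroid markers (3 of 5 listed) reached 4.35% in spleen WT replicate 1, and fat markers stayed at or below 0.0120%.

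In heart, most unconverted reads of the member sites came from Idh3b, at both of its sites. Idh3b encodes the beta subunit of NAD-dependent isocitrate dehydrogenase, the citrate cycle enzyme that turns isocitrate into 2-oxoglutarate. Pooled over member sites with at least 20 reads in both libraries of a group, the level was 5.16% and 4.54% in WT heart and 8.43% and 4.51% in KO heart. With the Idh3b sites left out, the same libraries gave 0.339%, 0.459%, 0.791% and 0.766%. The highest pooled level outside the heart, 5.57% in spleen KO replicate 2, did not come from Idh3b, since it was 5.78% without it. Members also took more of the reads over listed sites in heart, from 3.45% to 5.31% per library compared with 0.266% to 1.61% in the other tissues. Without Idh3b the shares were 2.24% to 3.54% against 0.176% to 1.52%. Such a share depends on which sites of which genes were listed and is no direct measure of expression. In bulk tissue, a higher share of reads from more cells of a type or from more mRNA per cell cannot be told apart.

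**Figure D1:**
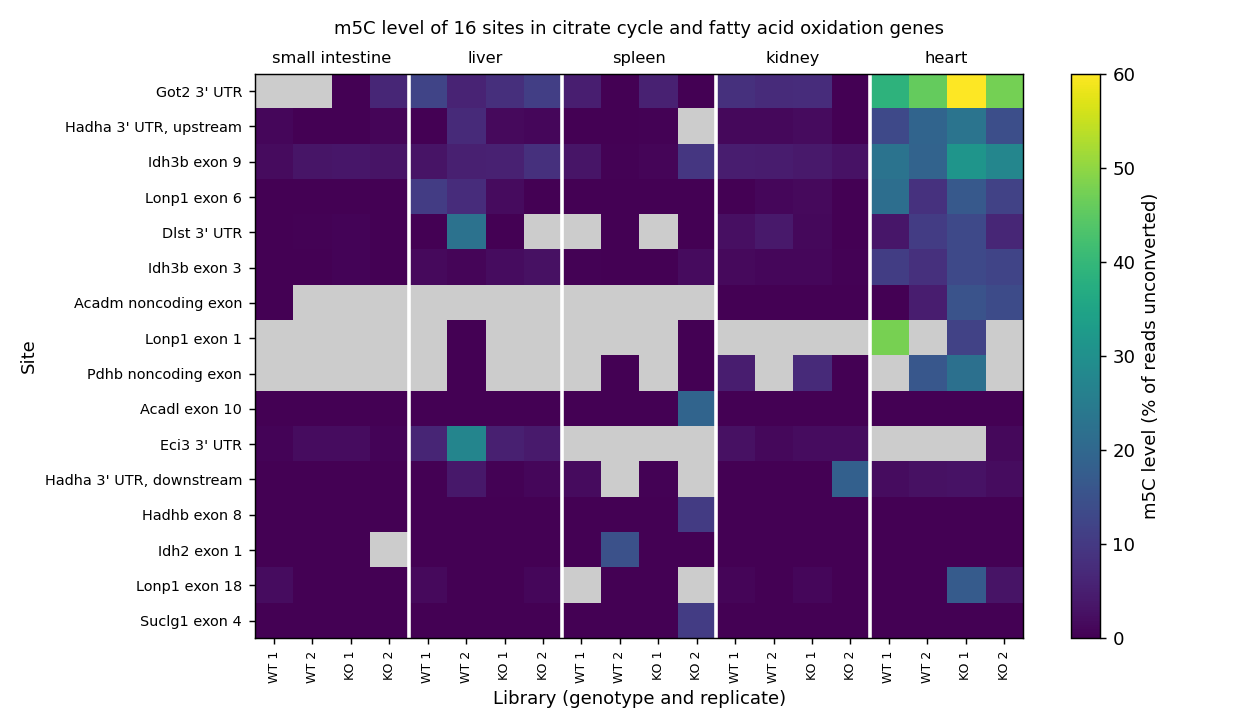
m5C level (color, % of reads unconverted) of 16 sites in citrate cycle and fatty acid oxidation genes (rows) in the 20 libraries (columns, by tissue, genotype and replicate); gray marks coverage under 20 reads. The 9 upper rows are the sites passed in at least 2 libraries, of which Got2, Hadha (upstream) and both Idh3b sites are higher in the 4 heart columns than in any other, while most lower rows stand out in a single column.

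At the exon 9 site of Idh3b, the level was 22.9% (2883 of 12602 reads) and 19.02% (2378 of 12502) in WT heart, and 31.2% (3869 of 12393) and 27.4% (1076 of 3921) in KO heart. In the other WT tissues it was 4.78% and 4.59% in kidney, 3.07% and 5.29% in liver, 1.85% and 3.51% in small intestine, and 3.32% and 0.384% in spleen. In KO it was 4.12% and 2.95% in kidney, 5.57% and 8.42% in liver, 3.64% and 3.24% in small intestine, and 0.898% and 9.58% in spleen. Every heart library was above every library of the other 4 tissues, the nearest being spleen KO replicate 2. Exact 95% Clopper-Pearson intervals were 22.1% to 23.6% and 18.3% to 19.7% in WT heart, compared with 3.48% to 6.39% and 3.49% to 5.91% in WT kidney. Such intervals cover counting error only, because PCR copies could not be told from separate molecules.

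The exon 3 site of Idh3b had the deepest coverage of the 9 sites in WT heart and was again highest in heart. It reached 10.9% (2842 of 26155 reads) and 8.27% (1813 of 21920) in WT heart and 13.2% (2287 of 17326) and 12.3% (557 of 4536) in KO heart. Outside the heart the highest library was liver KO replicate 2 at 2.63%, and both WT small intestine libraries were at 0% (0 of 485 and 0 of 336 reads, which allow a level of up to 0.619% and 0.893%). The WT group means ran from heart at 9.57% ± 1.83 (SD, n = 2) to kidney at 1.22% ± 0.293, liver at 1.21% ± 0.448, spleen at 0.166% ± 0.235 and small intestine at 0%. Kidney and liver differed by less than the spread between their libraries, and so did spleen and small intestine.

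**Figure D2:**
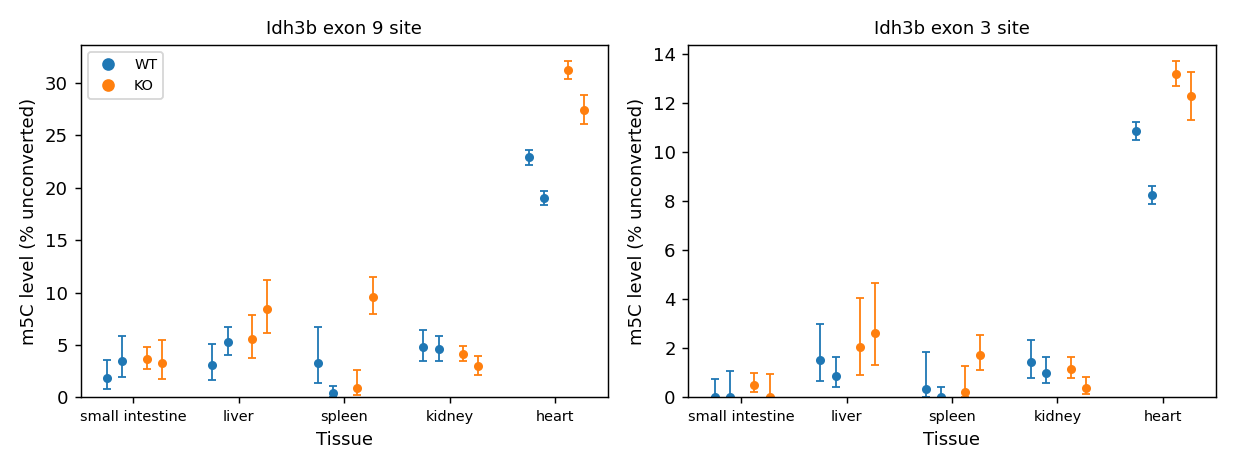
m5C level (%) of the exon 9 site (left) and the exon 3 site (right) of Idh3b in each library by tissue, WT in blue and KO in orange, with exact 95% binomial intervals. The heart points lie between 19.02% and 31.2% at exon 9 and between 8.27% and 13.2% at exon 3, above all libraries of the other tissues.

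Heart was compared with kidney and liver, the tissues with the nearest use of these pathways, by edgeR's quasi-likelihood test on unconverted and converted reads, adjusted by Benjamini-Hochberg over all sites tested. In WT heart against WT kidney, 2 of 9 tested member sites were called, both in Idh3b and both higher in heart. Of the 1128 tested sites, 2.93% were called higher. All 7 passes of the Idh3b sites were in heart libraries, so these sites were listed only where they were high. The p-values here and below do not allow for that choice. The exon 9 site was 4.47-fold higher in heart (20.9% ± 2.73 against 4.69% ± 0.137, n = 2 each, adjusted p = 8.87e-06). The exon 3 site was 7.83-fold higher (9.57% ± 1.83 against 1.22% ± 0.293, n = 2 each, adjusted p = 3.53e-17). Both calls were kept when any of the 4 libraries was left out, although most sites were called without heart WT replicate 1 (371 of 557) or 2 (762 of 947). In KO heart against KO kidney the same Idh3b sites were the 2 calls among 18 tested, while 0.805% of the 1739 tested sites were called higher. They were 8.29-fold (adjusted p = 0.000167) and 16.7-fold (adjusted p = 8.61e-11) higher in KO heart. Without heart KO replicate 1 neither was called (adjusted p = 0.935), and without heart KO replicate 2 the exon 9 site was not (adjusted p = 0.643).

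Against liver in WT, edgeR called none of 10 tested member sites, and 2 had an unadjusted p under 0.05 (43 of all 1264). Of the 1264 tested sites, 0.237% were called higher in heart. The heart and liver groups did not overlap at the Idh3b sites. With 2 libraries per group this can arise without a difference, and its share among the 1264 sites was not counted. The Idh3b sites were 5.01-fold (adjusted p = 0.782) and 7.91-fold (adjusted p = 0.245) higher in heart. Both became calls when either liver library was left out, with adjusted p from 5.54e-06 to 0.0467 (66 of 1874 sites called without replicate 1 and 47 of 944 without replicate 2). In KO, 2 of 7 tested member sites were called higher in heart, again both in Idh3b (4.19-fold, adjusted p = 0.0421, and 5.42-fold, adjusted p = 0.0307), compared with 2.84% of the 423 tested sites. The exon 9 call was lost without liver KO replicate 1 (adjusted p = 0.0601). Limma on the logit of the level called no site, member or other, in any of these 4 comparisons, and 2, 1, 0 and 6 member sites had an unadjusted p under 0.05 by it, in the order WT heart against kidney, WT against liver, KO against kidney and KO against liver.

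Only sites with at least 10 unconverted reads over the libraries compared were tested, so many tested sites owed their reads to a single library. A second set, chosen after seeing the data, held the sites that in a group had a mean level of 5% or more, with 20 or more reads and 2 or more of them unconverted in each replicate, and more member sites were called in it in all 4 comparisons. In WT heart against kidney 5 of 6 member sites were called higher, and 51.9% of all 351 sites tested. In KO heart against KO liver 6 of 6 were called, and 40.8% of all. For WT heart against liver the numbers were 2 of 6 members and 15% of all sites, and for KO heart against KO kidney 3 of 8 and 15.1%. The member sites met these criteria in heart, so they entered the test where they were high, and the counts say nothing of how often a member site differs.

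Got2, the mitochondrial aspartate aminotransferase of the malate-aspartate shuttle, had the highest reproducible level. Its 3′ UTR site was unconverted in 38.8% (33 of 85 reads) and 45.9% (of 257 reads) in WT heart and in 60.0% (99 of 165) and 47.5% (of 217) in KO heart. It was also passed once in WT liver and once in KO liver, where it ranged from 5.94% to 12.2% over 4 libraries, and it was 8.33% and 7.49% in WT kidney. The heart libraries did not overlap with any other library. Heart was 5.36-fold above kidney in WT, but the difference was not called (adjusted p = 0.74). The mRNA around this site (151 nt) aligned over its full length to 1 other place in the genome at 97.4% identity, so that some reads may come from the copy.

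Hadha encodes the alpha subunit of the mitochondrial trifunctional protein, which carries out the later steps of long-chain beta-oxidation. Its upstream 3′ UTR site was at 13.3% (22 of 166 reads) and 19.4% (45 of 232) in WT heart and at 23.1% (of 442) and 14.4% (99 of 687) in KO heart. In the other tissues the highest library was liver WT replicate 2 at 7.20%, and its partner, liver WT replicate 1, was at 0% of 113 reads. Heart was 12.9-fold above kidney in WT (16.3% ± 4.34 against 1.26% ± 0.0325, n = 2 each), which was not called (adjusted p = 0.74). A second site 41 nt further downstream showed no such pattern, with 2.40% ± 0.508 in WT heart and 2.38% ± 0.649 in KO heart, and it was passed only in kidney KO replicate 2 (18.4%), whose partner was at 0.181%.

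Lonp1, the ATP-dependent protease of the mitochondrial matrix, had an exon 6 site whose replicates differed in WT heart by more than counting error. Its exon 6 site was at 21.6% (of 570 reads) and 8.58% (40 of 466) in WT heart, with intervals of 18.3% to 25.2% and 6.20% to 11.5% that do not meet. It was at 16.8% (51 of 303) and 11.8% (8 of 68) in KO heart and at 10.6% and 7.50% in WT liver. In KO liver it was at 1.85% (1 of 54 reads) and 0% (0 of 39, which allow up to 7.69%). In kidney it was at no more than 1.56%. The spleen and small intestine libraries were at 0%, but their coverage, down to 44 and 20 reads, allows up to 6.82% and 15%. The exon 1 site had coverage of at least 20 reads in only 1 library of each heart genotype (10 of 21 reads in WT and 4 of 34 in KO), so no group mean could be given.

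Dlst, the succinyltransferase component of the 2-oxoglutarate dehydrogenase complex, had a 3′ UTR site at 3.57% and 10.6% in WT heart and 13.3% and 6.35% in KO heart. The highest library was not a heart library but liver WT replicate 2, at 22.6% (12 of 53 reads), whose partner was at 0% (0 of 113). The Acadm site, in a gene for medium-chain acyl-CoA dehydrogenase, was at 15.4% and 13.8% in KO heart (6 of 39 and 4 of 29 reads), at 0% and 4.82% in WT heart, and at 0% in all 4 kidney libraries. The Pdhb site, in the gene for the beta subunit of pyruvate dehydrogenase, was passed in WT replicate 2 (16.2%, 6 of 37) and KO replicate 1 (22.1%, 15 of 68) of heart, while the other heart library of each genotype had under 20 reads.

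**Figure D3:**
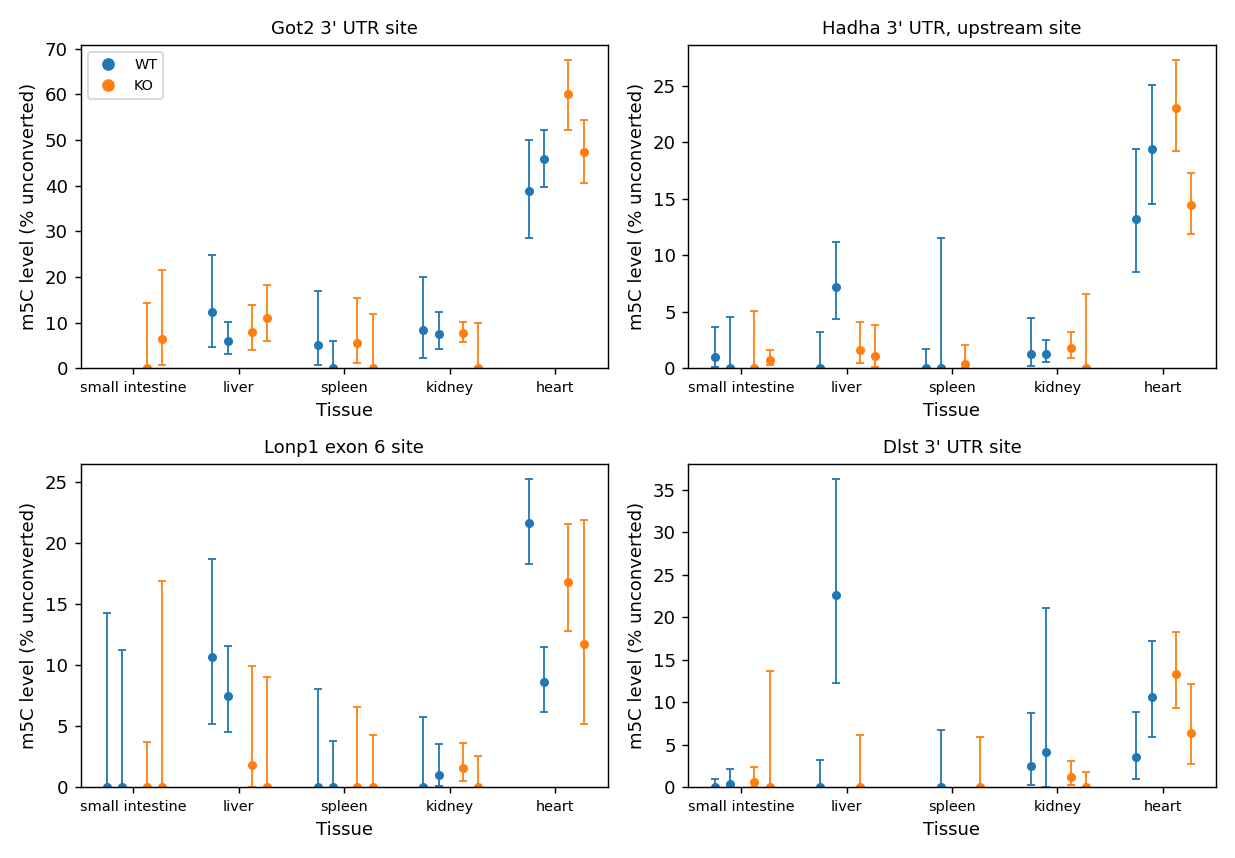
m5C level (%) of the Got2, Hadha (upstream), Lonp1 exon 6 and Dlst sites in each library with at least 20 reads, by tissue, WT in blue and KO in orange, with exact 95% binomial intervals. The heart libraries stand apart for Got2 (38.8% to 60.0%) and Hadha (13.3% to 23.1%), whereas for Lonp1 and Dlst they overlap with liver.

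Loss of Nsun6 changed the level of no member site past the threshold. In heart, 8 member sites were tested for KO against WT and none was called by edgeR, while 2.29% of the 523 tested sites were. Over all 523, 64 had an unadjusted p under 0.05, and 3 of them were member sites. These were the exon 9 site of Idh3b (29.3% ± 2.67 in KO against 20.9% ± 2.73 in WT, n = 2 each, adjusted p = 0.225), its exon 3 site (12.7% ± 0.651 against 9.57% ± 1.83, adjusted p = 0.38), and an exon 18 site of Lonp1. At both Idh3b sites the KO libraries were above the WT libraries with no overlap. The Lonp1 exon 18 site (chr17:56614449) was at 0% in WT (0 of 98 reads in replicate 1) and at 17.1% (6 of 35) and 3.17% in KO, with an adjusted p of 0.334. The other 5 sites (Got2, Hadha, Lonp1 exon 6, Dlst and Acadm) had adjusted p between 0.644 and 0.992, and KO was above WT with no overlap at Got2 and Acadm while the genotypes overlapped at the other 3. With 2 libraries per genotype, such separation, at these sites and at Idh3b, can arise without a difference. Its share among the 523 sites was not counted. Limma called none of the 8 and none of the 523, with 2 of the 8 and 72 of the 523 at an unadjusted p under 0.05.

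In liver, none of 4 tested member sites was called, compared with 2.6% of 154 sites. Eci3, a peroxisomal enoyl-CoA isomerase, was at 6.32% and 27.3% in WT and 5.33% and 4.29% in KO (adjusted p = 0.61), and without WT replicate 1 it passed as lower in KO (adjusted p = 0.0157). The Lonp1 exon 6 site was lower in KO in both libraries (0.926% ± 1.31 against 9.07% ± 2.22, n = 2 each, adjusted p = 0.334), and without WT replicate 2 it passed (adjusted p = 0.044), as did the exon 9 site of Idh3b as higher in KO (adjusted p = 0.0309). These calls are not particular to the members, since 1023 of 1136 sites were called without WT replicate 1 and 615 of 770 without WT replicate 2. In spleen the single tested member site, Idh3b exon 9, was not called (adjusted p = 0.842), nor was the single site in kidney, Got2 (adjusted p = 0.801). Of all sites, 1.32% of 152 were called in spleen and 0% of 209 in kidney, where 16 had an unadjusted p under 0.05 and limma also called 0. No member site could be tested in small intestine, where 3.15% of 127 sites were called. Over the 5 tissues together, none of 24 tested member sites was called and 1 had an unadjusted p under 0.05, with 0.139% of 1438 sites called. Of those 1438, 13 had an unadjusted p under 0.05.

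The only member site with CTCCA lay in exon 18 of Cpt1b (chr15:89417172, minus strand), which encodes the muscle form of the carnitine palmitoyltransferase that admits long-chain fatty acids to mitochondria. Its sequence is shown because it is the single member site with the NSUN6 motif.
Cpt1b exon 18: tcttccacatCtccagcaaat
It was passed in spleen KO replicate 2 alone, at 55.8% (24 of 43 reads), where Nsun6 was absent. Of the 12 other libraries with at least 20 reads, 11 had 0 unconverted reads and the highest was at 3.70%.

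When levels were compared over the 5 WT tissues, 2 of 16 tested member sites were called, with 1.45% of 1034 sites called in all. They were the exon 3 site of Idh3b (adjusted p = 3.07e-13) and a site in exon 1 of Idh2 (chr7:80115187, minus strand, adjusted p = 0.0176), the mitochondrial NADP-dependent isocitrate dehydrogenase. The Idh2 site owed its call to spleen WT replicate 2, with 10 of 67 reads unconverted (14.9%), while spleen WT replicate 1 had 0 of 65 and no other WT library was above 0.0315%. When single libraries were left out its adjusted p ranged from 3.72e-06 to 1.00, and it was not called without small intestine WT replicate 1 or without either WT library of kidney or heart, and not tested without spleen WT replicate 2. The Idh3b exon 3 site stayed called in all 10 of these fits (adjusted p from 1.54e-20 to 0.000322). Limma called neither site and no other, with 14 of the 16 and 231 of all 1034 at an unadjusted p under 0.05. Among the sites that met the criteria in a group, 4 of 4 member sites were called, and 43.3% of 208 sites, but the member sites had entered through the tissues where they were high. In the main test, too, the Idh3b site had been listed through heart libraries alone. The Idh2 site had been listed through spleen WT replicate 2 alone.

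The 78 sites passed in a single library had a median level of 15.7% there, from 10.0% to 55.8%. For 65 of them the other library of the same tissue and genotype had at least 20 reads, and in 58 of these (89.2%) it had 0 unconverted reads, compared with 95.4% over all such listed sites. Over all other libraries with at least 20 reads, 1031 of 1140 values (90.4%) were at 0. The 78 sites came from 12 libraries, chiefly spleen WT replicate 2 with 14 sites, spleen KO replicate 2 with 13, and kidney KO replicate 2 and heart KO replicate 1 with 10 each. These libraries were also among those with most passes over all listed sites (4360, 4679, 3303 and 3995, in that order), as was small intestine KO replicate 1 (3741).

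The genes with most listed sites consisted largely of such sites. Ogdh, the first component of the 2-oxoglutarate dehydrogenase complex, had 9, each passed in a single library. These included a 3′ UTR site at 50.0% (13 of 26 reads) in heart WT replicate 1 that had 0 of 90 reads unconverted in heart WT replicate 2. Cpt1a, the carnitine palmitoyltransferase of liver and kidney, had 8 sites between 10.4% and 25%, and 94 of their 99 values in other libraries were at 0. Dlst had 6 further sites and Lonp1 5, and catalase (Cat) had 5 between 10.3% and 14.3%. The 3 sites of the chaperonin Hspd1 reached 43.6% in kidney KO replicate 2, and all 49 of their values elsewhere were at 0. Dlat, the acetyltransferase of the pyruvate dehydrogenase complex, had 4 sites of up to 26%.

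Some highly covered member sites, other than those of Idh3b, kept only a few unconverted reads in heart. In WT heart replicate 1, a coding site of Hadhb, the beta subunit of the trifunctional protein, had 3 unconverted reads of 24072 (0.0125%), although it was passed in spleen KO replicate 2 at 10.4% (26 of 249). For this site the surrounding mRNA had 2 near-identical copies elsewhere in the genome, the closest at 98.7% identity. Exon 1 of Idh2 had 5 of 15896 (0.0315%) and exon 10 of Acadl, the long-chain acyl-CoA dehydrogenase, had 2 of 10430 (0.0192%). The Acadl site was passed only in spleen KO replicate 2, at 19.2% (30 of 156), and so was exon 4 of Suclg1, a succinate-CoA ligase subunit, at 10.8% (24 of 223), while their partners had 0 of 208 and 0 of 405.

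The unweighted mean over member sites followed that over all other sites from library to library. It was higher for member sites in 8 of 20 libraries. In spleen it was 0.177% and 3.84% in WT and 0.205% and 4.56% in KO, and in kidney 0.294% and 0.450% in WT and 0.443% and 3.47% in KO, so that replicate 2 stood apart in both spleen groups and in KO kidney. The other sites of these libraries gave 3.49%, 5.15% and 5.03%. In heart the member mean was 2.94% ± 0.531 in WT and 3.21% ± 1.61 in KO (n = 2 each), compared with 3.17% ± 1.16 and 1.87% ± 1.54 for the other sites. Sites that met the criteria above numbered 6 of 71 members in WT heart (8.45%) and 8 of 69 in KO heart (11.6%). Over all sites the shares were 3.59% and 4.38%. In WT liver they were 3 of 52 members (5.77%) and 1.68% of all sites, and in KO liver 2 of 52 (3.85%) and 2.28%. KO spleen had 2.08% of members and 0.870% of all, and WT kidney 1.35% and 1.29%. No member site met the criteria in small intestine, WT spleen or KO kidney. A share above that of all sites was thus not limited to heart.

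**Figure D4:**
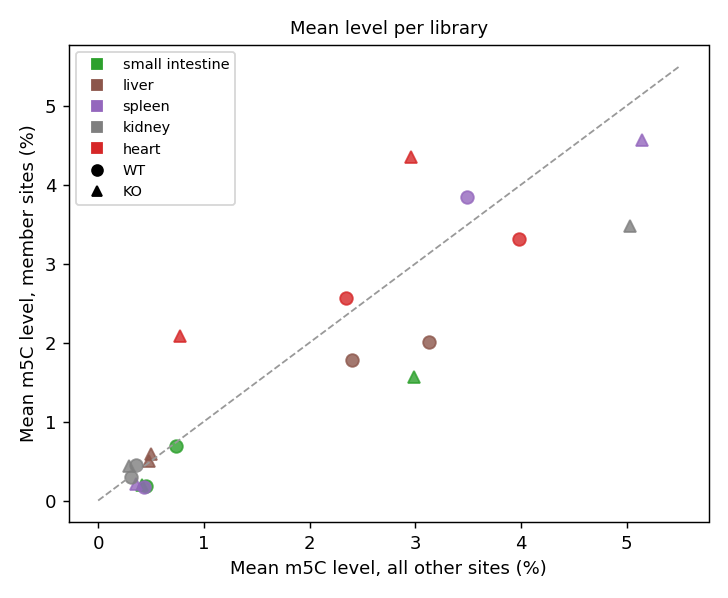
Mean m5C level (%) over member sites (vertical) against that over all other listed sites (horizontal) in each library, colored by tissue, with circles for WT and triangles for KO; the dashed line marks equal means. Spleen WT and KO replicate 2 and kidney KO replicate 2 lie at 3.47% to 4.56% on the vertical axis, while their partners lie below 0.5%.

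Of 60 further genes of these pathways, 47 had listed sites, 145 in all. In heart, 8 of their sites were tested for KO against WT and 1 was called, lower in KO, and in small intestine the only site tested was called lower. These were coding sites of Phyh (30.7% ± 24.4 in WT heart and 0% in KO heart, adjusted p = 0.000162) and Ephx2 (9.67% ± 1.62 in WT small intestine and 0% in KO, adjusted p = 7.75e-07), for phytanoyl-CoA hydroxylase and a soluble epoxide hydrolase. In both the listed C begins CTCCA, and their sequences are shown beside the one in Cpt1b.
Phyh exon 5: atcaacaagcCtccagatgtt
Ephx2 exon 3: acaggaagtcCtccaaagcct
In WT heart against WT kidney, a site in exon 8 of Sdhb, the iron-sulfur subunit of succinate dehydrogenase, was called higher in heart (16.1% and 2.03%, adjusted p = 3.08e-07). It was also called over the 5 WT tissues (adjusted p = 0.0357). No site of these further genes was called for KO against WT in liver, spleen or kidney or over the 5 tissues together, in WT heart against liver, or in KO heart against kidney. In kidney, where 0 of all 209 sites were called, the Ephx2 and Phyh sites were nevertheless at 0% in KO. Their WT kidney levels were 23.0% ± 7.25 and 5.255% ± 0.27 (n = 2 each).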

How the data were processed

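The authors captured mRNA, treated it with bisulfite, made stranded paired-end libraries and called m5C sites with a published RNA m5C pipeline, whose version and read aligner were not given in the sources used here. In the submitters' processing notes the build is mm10. The deposited table gives, per site and library, the coverage and the unconverted reads as counts, the level as a fraction and the authors' pass mark, and 60 further deposited columns (p-values, signal and nonconversion) were not used. The level equaled unconverted over coverage. The lowest values among passed sites were 20 reads, 3 unconverted and a fraction of 0.1, so the table lists sites that passed somewhere and not all cytosines. A site had to have 20 reads in every library compared. For KO against WT within a tissue it also had to meet the criteria (in a genotype, a mean level of 5% or more, with 2 or more unconverted reads in each replicate), and otherwise 10 unconverted reads in total.

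Counts were fitted with edgeR 4.0.16 (R 4.3.3, glmQLFit and glmQLFTest, an intercept per library and methylation terms, two-sided, adjusted p under 0.05) over the whole table. Limma 3.58.1 on the logit (0.5 added) was the second tool. Both were also run on counts simulated for the heart libraries only, with spread drawn separately per site. That simulation held no shift common to a library, so it cannot vouch for the tests where libraries shift. Alternatives were coverage of 10 or 30 reads, other filters, the replicate number as a block and each library left out. Regions came from GENCODE M21, sequences from the RefSeq GRCm38.p6 genome, and copies from blastn 2.17.0 (151 nt of mRNA, at least 100 nt aligned). Python 3.11.15 with pandas 2.3.3, scipy 1.17.1 and pysam 0.24.0 was used. Where no read was unconverted, the upper limit given is 3 reads over the coverage.

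Comparisons between KO tissues were added after seeing the data. The members and gene lists were chosen with earlier results of these data known. Named were member sites tested for KO against WT within a tissue, passed in at least 2 libraries or called, and other pathway genes with a called site. Also named, by highest group mean, were remaining member sites with 2 or more unconverted reads in both libraries, down to 0.0240% (Hadhb, WT heart). Further single-library sites and the CTCCA site were named after their values were seen. The result of 1 further pathway gene is not reported here.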

Additional observations from a re-analysis of the deposited data

How the results depend on the processing

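Counts of called member sites were recomputed under each alternative, and 93 of 128 stayed within 1.5 times the main count or at 0 in both. Several of the latter, in small intestine, had no member site to test. The 93 are therefore no measure of stability. With no minimum beyond 1 unconverted read, the calls fell from 2 to 1 over the WT tissues, in WT heart against kidney and in KO heart against KO kidney. Among sites meeting the criteria in a group, an alternative chosen after seeing the data, they were 4 over the WT tissues, 5 in WT heart against kidney, 2 in WT heart against liver and 6 in KO heart against KO liver. Limma called 0 in each comparison that had calls. With the replicate block, KO heart against KO liver had 6 calls, with 147 of 423 sites called in all against 12 without it, and no other count of member sites changed. At the tested sites, deviations of same-numbered WT and KO libraries were barely correlated (-0.145 to 0.0753). That correlation cannot see a shift common to all sites of a library. Replicate 2 was the higher library in both spleen genotypes (3.84% in WT and 4.56% in KO over member sites), so pairing or a shared batch was not settled. In heart the crossed replicate block left 0 member sites and 11 of 523 sites called.

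With 1 library left out, which leaves that group a lone library assumed to vary like the others, calls for KO against WT ranged from 0 to 3 in small intestine, 0 to 6 in liver, 0 to 8 in spleen, 0 to 9 in kidney and 0 to 1 in heart. The highest counts over all sites in such fits were 507 of 1109 in small intestine, 1023 of 1136 in liver, 963 of 2114 in spleen, 1733 of 1832 in kidney and 72 of 1723 in heart, so these calls are general and not about the members. They ranged from 1 to 3 over the WT tissues, 2 to 7 in WT heart against kidney, 0 to 3 in WT heart against liver, 0 to 11 in KO heart against KO kidney and 1 to 6 in KO heart against KO liver, where all sites reached 23 of 1186, 762 of 947, 66 of 1874, 390 of 1707 and 337 of 425, respectively. Differences in percentage points turned sign for Got2 in liver (-2.70 to 3.60) and, in heart, for Dlst (-0.765 to 6.27), Lonp1 exon 6 (-7.28 to 5.71) and Hadha (-1.91 to 6.75). Over all sites, calls outside these fits ranged from 0 to 14 in heart, 2 to 9 in liver, 2 to 5 in small intestine, 0 to 3 in spleen, 0 to 1 in kidney and 2 to 5 over the tissues for KO against WT. They ranged from 0 to 90 over the WT tissues, 0 to 191 and 0 to 47 in WT heart against kidney and liver, and 0 to 59 and 0 to 147 in KO.

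The mean level of the member sites moved beyond 1 SD in liver WT with a minimum of 30 reads (1.69%), in liver KO with 10 reads (0.668%), and with pooled reads in liver WT (0.839%), heart WT (4.85%) and heart KO (6.47%), where in heart the Idh3b sites carry most of the unconverted reads. The cause of the other changes was not tested. With 2 libraries per group, coverage under about 100 reads leaves intervals of several percentage points around most levels.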
